A study of Mus musculus with 1 sample.

Results

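The perivascular cells described here, mural cells that wrap the outside of blood vessels and are called pericytes on capillaries, were 71 of 4301 cells with at least 1000 detected genes in a single-cell RNA-seq library of fetal mouse testes, or 1.65% (exact 95% binomial interval 1.29 to 2.08%). They were chosen by measured values. A member had at least 1 UMI, a counted RNA molecule, of at least 4 of the 8 genes Rgs5, Ndufa4l2, Cox4i2, Kcnj8, Notch3, Abcc9, Higd1b and Itga1. It also had a UMI of at most 2 of 5 endothelial genes (Pecam1, Cdh5, Esam, Tie1 and Cldn5) and of at most 3 of 6 Sertoli genes (Amh, Sox9, Cst9, Aard, Tesc and Mro), and the steroidogenic genes Cyp11a1, Cyp17a1, Star and Hsd3b1 held under 0.2% of its UMIs. The levels of these 23 genes are therefore a description and no finding, and they were left out of all counts of genes past 2-fold and all medians below. The marker lists of other cell types are given whole, with the rule's genes in them.

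The study asked what the nuclear receptor NR5A1 does in Sertoli cells after sex determination, by comparing fetal testes that lack it in these cells with controls. The library analysed here was the control, whose genotype is labelled WT: cells of testes labelled as embryonic day 14.5 (E14.5), from 12 controls, pooled into 1 library on the 10x Genomics Chromium 3′ system. By the study's methods the controls carried loxP-flanked Nr5a1 alleles (Nr5a1 L2/L2) without the Cre transgene and without the YFP reporter transgene of the mutants. The labels give E14.5 alone, whereas the study's text also names an earlier day for these suspensions, so the stage is given as labelled. The mutant library was not analysed here. With 1 library there was no replicate and no test. Every interval in parentheses is a 95% interval for counting error alone (Poisson for levels, conditional binomial for folds, exact binomial for shares), and it does not cover differences between animals or libraries.

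Pericytes and vascular smooth muscle cells form the mural layer of vessels and share a basement membrane with the endothelium. Endothelial PDGF-B attracts and maintains them through the receptor PDGFRB, Notch ligands on endothelium signal to NOTCH3 on mural cells, and angiopoietin from the vessel wall acts on the endothelial receptor TEK. In the fetal testis they lie in the interstitium, around the vessels that run between the seminiferous cords, and share that space with interstitial, Leydig and peritubular myoid cells.

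The members held 1099173 UMIs in all. Each had between 4796 and 127109 UMIs (median 12339) and a median of 3594 genes, against a median of 12389.5 UMIs in the other 4230 cells. Of 83 cells with at least 4 of the 8 genes, 4 exceeded the endothelial limit, 9 the Sertoli limit and 4 the steroidogenic limit, some more than 1 of them. Just inside the threshold were 15 members with 4 of the 8 genes, whose summed level of Rgs5 was 128 CPM (89.6 to 177) and of Ndufa4l2 92.3 CPM (60.3 to 135). The deepest member was among these 15, and without it Rgs5 was at 233 CPM (163 to 323) and Ndufa4l2 at 162 CPM (105 to 239), with 20 of the 36 UMIs of Rgs5 in 1 member. Just outside it were 68 cells with 3 of the 8 genes, at 7.93 CPM (3.42 to 15.6) and 54.5 CPM (41.1 to 70.9). Deeper members tended to show more of the 8 genes (Spearman rho 0.33 over the 71 cells of this 1 library).

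The 4301 cells were also clustered. In a cluster of 167 cells whose leading genes were Rgs5, Ndufa4l2, Itga1, Cox4i2 and Kcnj8, 62 of the 71 members were found, and it was named perivascular-like from its markers. These are genes of the rule, so the overlap is no independent check of the label. The remaining 9 members lay in 2 interstitial-like clusters (6 cells), a coelomic epithelium-like cluster (1 cell) and 2 unnamed clusters (2 cells), and are called members by the rule alone. The clustering was made from 3000 variable genes, and the levels in its groups are a description. Rgs5 was at 29.3 CPM (12.6 to 57.7) in these 9 against 758 CPM (699.8 to 819.8) in the 62, Mcam at 11.0 CPM (2.26 to 32.1) against 159.8 CPM (134 to 189.5), and Tcf21, a transcription factor of gonadal stroma, at 549 CPM (465 to 644) against 255 CPM (222 to 292). Without the deepest member, which is among the 9, Rgs5 was at 54.7 CPM (23.6 to 108), Mcam at 13.7 CPM (1.66 to 49.4) and Tcf21 at 561 CPM (446 to 696) in the remaining 8. The map of all cells places most of the 62 in 1 compact group beside the interstitial-like cells, and the 9 among other classes.

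**Figure D1:**
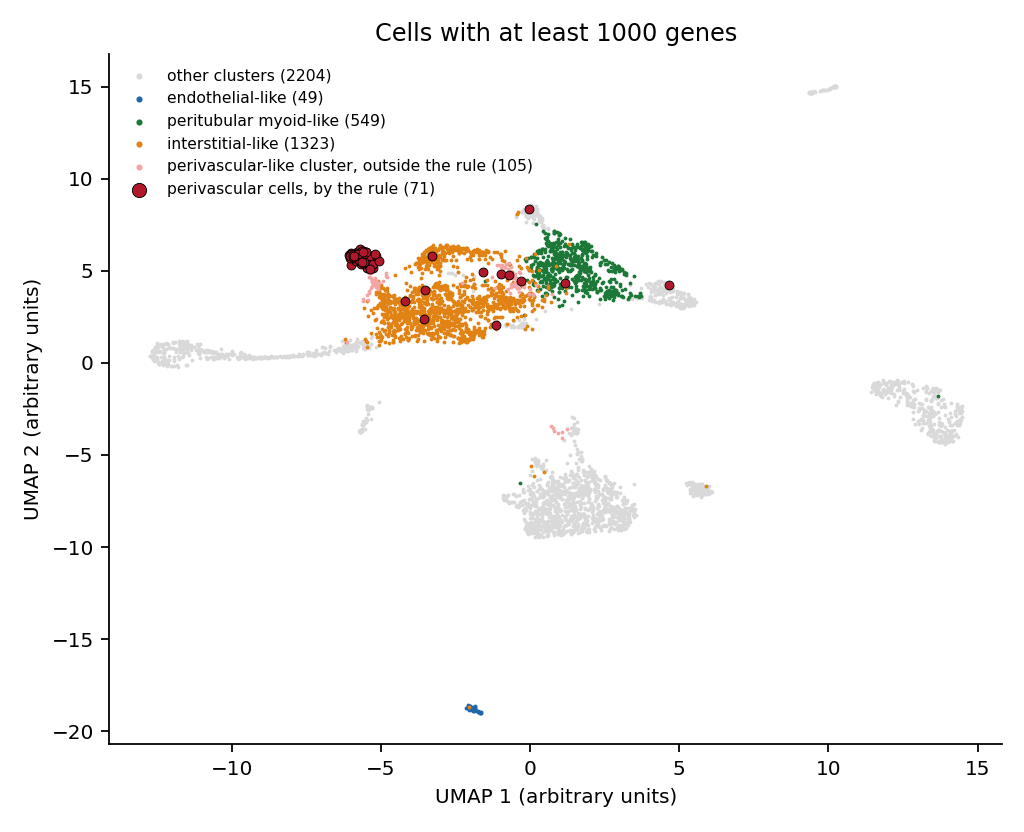
UMAP of the 4301 cells with at least 1000 genes; both axes are in arbitrary units and each point is 1 cell. Dark red points with a black edge are the 71 members, pale red points the 105 cells of the perivascular-like cluster that did not meet the rule, and blue, green and orange points the 3 classes used for comparison; most members form 1 compact group at the upper left.

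Markers of other cell types were read in the members as whole lists. Of 17 endothelial markers, 13 had a UMI in some member, with a summed level of 257 CPM against 8848 CPM in endothelial-like cells; the most abundant was Ramp2 at 70.1 CPM, and Pecam1, Tie1, Cldn5 and Sox17 were at 0. At least 1 UMI of the list was found in 66 members. The 10 immune markers came to 4 UMIs, all of Cd68, and the 9 germ markers to 12 UMIs. The 9 Sertoli markers summed to 77.3 CPM (most abundant Aard) against 12659 CPM in Sertoli-like cells. The rule itself set limits on 5 of the 17 endothelial, 6 of the 9 Sertoli and 4 of the 8 Leydig markers, so those levels are partly fixed by it. All 5 rete testis markers together came to 10 UMIs, of which Krt18 held 8, and Pax8, Pax2 and Cdh16 were at 0. Of 10 neural crest and glial markers, 4 had a UMI, and 84 of the 93 UMIs were of the neurotrophin receptor gene Ngfr, with Foxd3, Erbb3, Tubb3 and Stmn2 among those at 0. Of 7 skeletal muscle markers only Tnnt1 (51 UMIs) and Tnnt3 had any, and Myod1, Myog, Myf5, Ttn and Actc1 were at 0.

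The markers of neighbouring stromal classes were nearer to the level of their own class. All 8 interstitial markers had UMIs, in 70 of 71 members, and summed to 1732 CPM against 2916 CPM in interstitial-like cells, with Nr2f2 the most abundant at 469 CPM. All 9 peritubular myoid markers had UMIs, in all 71 members, and summed to 3333 CPM against 3963 CPM in peritubular myoid-like cells, with Acta2 the most abundant at 1620.3 CPM. Of the peritubular myoid list, the contractile genes are also known from mural cells.

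The coelomic epithelium, Leydig and erythroid markers came mostly from single cells. The deepest member held 11.6% of all member UMIs, had a doublet score among the highest 4% and lay in the coelomic epithelium-like cluster. It accounted for 106 of the 110 UMIs of the 8 coelomic epithelium markers (most abundant Upk3b) and for 91 of the 135 UMIs of the 8 Leydig markers (most abundant Cyp11a1, which the rule used). Another member carried 4997 of the 5181 UMIs of the 10 erythroid markers (most abundant Hbb-bs), which had at least 1 UMI in 63 members, so that hemoglobin made up 23.2% of its UMIs against a median of 0.0168% over the members. In all, 4 members had a doublet score among the highest 4%. Where a level below differs by over 1.5 times without the deepest member, that value is given too.

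The rule genes themselves were as follows. Rgs5, a regulator of G protein signalling that marks pericytes (chr1:169655501-169695813, GRCm38), had 634 UMIs over 54 members, or 577 CPM (533 to 623), against 1.49 CPM in all other cells. Kcnj8 and Abcc9 encode the pore and the regulatory subunit of the vascular ATP-sensitive potassium channel, and the genes lie on the same strand of chromosome 6 (chr6:142564837-142571614 and chr6:142587862-142702315). Kcnj8 was at 152 CPM (129.8 to 177) and Abcc9 at 97.3 CPM (79.8 to 118), each under 3 CPM in all other cells, while Kcnj11 and Abcc8, which encode the channel of pancreatic beta cells, had 0 UMIs in the members (an upper limit of 3 counts, or 2.73 CPM). A UMI of both Kcnj8 and Abcc9 was seen in 36 members, of Kcnj8 alone in 12, of Abcc9 alone in 13 and of neither in 10. Itga1, the collagen-binding integrin alpha subunit, was at 346 CPM (312 to 382) and Notch3 at 146 CPM (124 to 169.9). The levels of all 8 are those by which the cells were selected.

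Promoter sequences of 3 genes are shown as a description, on the coding strand, 5′ to 3′, from RefSeq on GRCm38.p6. They are those of the potassium channel pore gene Kcnj8 (chr6:142571615-142571864, minus strand), the Notch target Hey2 (chr10:30842834-30843033, minus strand) and the contractile gene Myl9 (chr2:156775264-156775363, plus strand). Capitals mark a word of the Notch effector RBPJ (TGGGAA, here as its reverse complement) in Hey2, beginning 207 bases before the start site, and a CArG box, the word of serum response factor, in Myl9, beginning 161 bases before it. No word searched was found in the Kcnj8 stretch.
Kcnj8: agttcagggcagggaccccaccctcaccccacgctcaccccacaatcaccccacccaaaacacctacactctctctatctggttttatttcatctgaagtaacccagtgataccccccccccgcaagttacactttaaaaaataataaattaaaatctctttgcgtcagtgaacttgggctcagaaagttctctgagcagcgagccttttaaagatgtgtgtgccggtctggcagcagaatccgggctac
Hey2: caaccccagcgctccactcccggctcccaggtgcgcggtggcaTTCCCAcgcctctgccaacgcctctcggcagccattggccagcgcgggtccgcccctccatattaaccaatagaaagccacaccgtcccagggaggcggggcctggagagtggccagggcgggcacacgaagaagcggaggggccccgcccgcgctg
Myl9: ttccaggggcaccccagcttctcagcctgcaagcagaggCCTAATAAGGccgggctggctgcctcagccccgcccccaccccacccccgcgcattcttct
In the 250 bases before each start site, both strands read, TGGGAA was present at 21.6% of all 32851 promoters in the table and a CArG box at 1.47%. Of 18 Notch pathway genes in the table, 5 held TGGGAA (Hes5, Hey2, Lfng, Maml2 and Rbpj), of 15 mural genes outside the rule 9 held it (Art3, Colec11, Ebf1, Gucy1a1, Gucy1b1, Itih5, P2ry14, Steap4 and Vtn), and of 5 rule genes 1 (Abcc9). Of 12 contractile genes only Myl9 held a CArG box. The hypoxia response core ACGTG, present at 16.6% of all promoters, was found for 1 of the 5 rule genes in the table, Notch3. Genes were counted once if any of their promoters in the table held the word, whereas the percents are per promoter. A gene with several start sites has more chances of a match, so the counts and the percents are not alike. A match is a word in this window and not a site of binding.

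Among the rule genes are variants of proteins found in every cell. Ndufa4l2, Cox4i2 and Higd1b are relatives of Ndufa4, Cox4i1 and Higd1a, which act at the mitochondrial respiratory chain, and Ndufa4l2 and Cox4i2 are known to be induced by low oxygen. Ndufa4l2 made up 32.0% (29.2 to 34.9%) of the UMIs of its pair in the members, against 0.482% (0.425 to 0.545%) in all other cells and 0.167% (0.0836 to 0.299%) in peritubular myoid-like cells. Cox4i2 made up 16.0% (14.1 to 18.0%) against 0.697% (0.638 to 0.760%) in all other cells and 1.59% (1.40 to 1.80%) in interstitial-like cells, and Higd1b 12.9% (7.42 to 20.4%) against 0.0734% (0.0269 to 0.160%). The shares rest on genes of the rule. The common partners, which the rule did not use, were near the level of other cells: Ndufa4 was at 654 CPM against 789.8, Cox4i1 at 1049.9 against 1080.0 and Higd1a at 91.9 against 122.

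**Figure D2:**
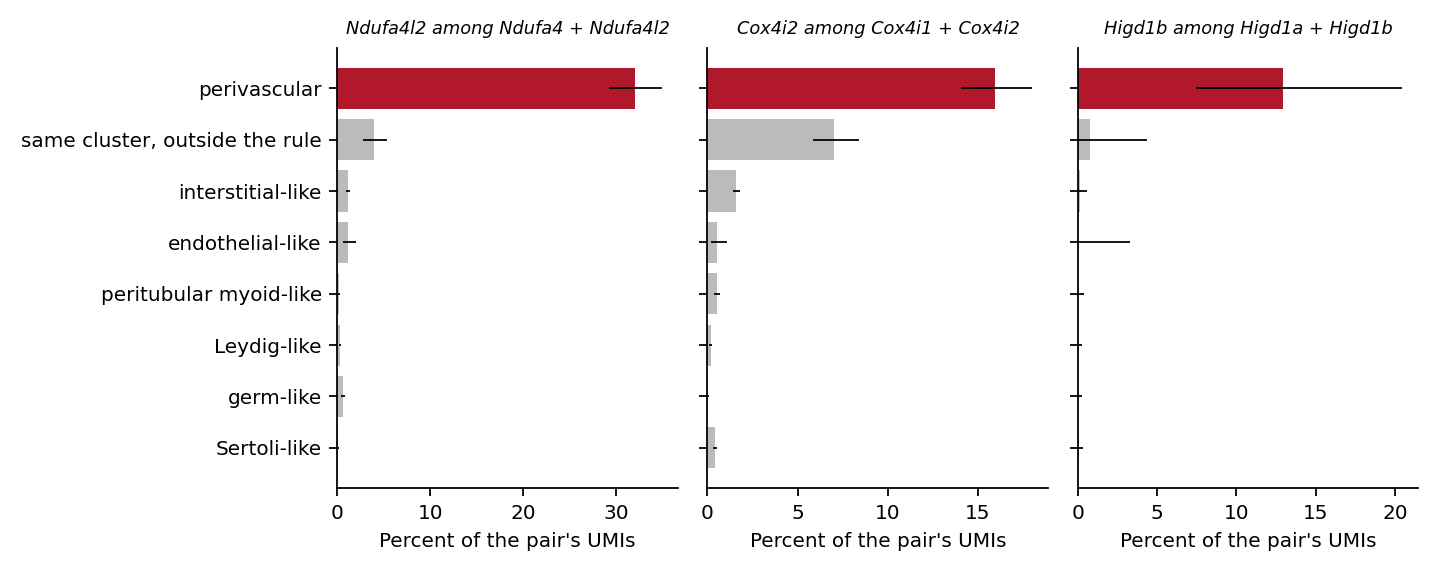
Percent of the UMIs of each gene pair that belonged to the variant Ndufa4l2, Cox4i2 or Higd1b (x axis), by cell class (y axis); bars are the shares and black lines their exact 95% binomial intervals, for counting error only. The members reach 32.0% for Ndufa4l2, 16.0% for Cox4i2 and 12.9% for Higd1b, and the perivascular-like cells outside the rule lie between the members and the other classes, with a wide interval for Higd1b.

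The hypoxia-induced genes, none of which the rule used, were also read as a list. Whether low oxygen acts on these cells was not tested. Of 18 tested genes, 3 were at least 2-fold higher than in all other cells and 3 at least 2-fold lower, with a median log2 ratio of 0.01, where the median over all 8728 tested genes was -0.01. Of those 8728 genes, 4.46% were at least 2-fold higher and 5.12% at least 2-fold lower. Here and below a gene was tested where the mean of the 2 groups was at least 10 CPM, and was called at 2-fold on log2((CPM + 5)/(CPM + 5)), which understates the change of low genes. A gene under 10 CPM in 1 of the groups was therefore tested only if it was above 10 CPM in the other. Such a gene could be called in that direction alone, and the shares over all genes carry the same limit. The glucose transporter gene Slc2a1 was at 9.10 CPM (4.36 to 16.7) against 22.6 CPM in all other cells, Vegfa at 26.4 CPM (17.7 to 37.9) against 27.0 CPM, and Ldha, lactate dehydrogenase A, at 224 against 184 CPM. The higher genes were Epas1, which encodes the oxygen-regulated factor HIF2A, at 45.5 CPM (33.8 to 59.97) against 8.22 CPM, with Hif3a and the phosphofructokinase gene Pfkp. The lower genes were Pdk1, pyruvate dehydrogenase kinase (3.64 CPM, 0.992 to 9.32, against 22.0 CPM), Bnip3, a mitophagy receptor (1.82 CPM, 0.220 to 6.57, against 19.2 CPM), and the stress gene Ddit4 (6.37 CPM, 2.56 to 13.1, against 32.7 CPM). Hif1a was at 79.2 against 112 CPM. Epas1 was higher still in endothelial-like cells, at 175 CPM (151 to 201).

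Over all genes outside the rule, 389 of 8728 were at least 2-fold higher in the members than in all other cells (4.46%) and 447 lower (5.12%). Against the 49 endothelial-like cells 9.82% of 8456 tested genes were higher and 8.35% lower, against the 549 peritubular myoid-like cells 3.76% of 8414 were higher and 1.85% lower, and against the 1323 interstitial-like cells 2.84% of 8436 were higher and 1.7% lower. The counts were thus lower against interstitial-like and peritubular myoid-like cells than against endothelial-like cells. Endothelial-like cells held 1108543 UMIs in all, against 7532261 in peritubular myoid-like and 13517452 in interstitial-like cells, so their levels carry more counting error. Its part in the order of the counts was not tested. With the 62 members of the cluster alone, 263 genes were lower than in peritubular myoid-like and 266 lower than in interstitial-like cells, and without cells of the highest 4% of doublet scores 254 and 238. The counts of the hypoxia-induced list and of the lists below are to be read against these shares, and the cells were chosen with related genes, so each list is a description.

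Mural cell genes outside the rule were the list with the largest median, at a log2 ratio of 2.56 against all other cells (1.70 with no filter on low values). Of 11 tested genes 10 were at least 2-fold higher and 0 lower. Against interstitial-like cells 8 of 11 were higher and 1 lower, against peritubular myoid-like cells 8 of 11 and 0, and against endothelial-like cells 10 of 12 and 0. Colec11 and Gucy1a1, both among the 10, were not past 2-fold above interstitial-like cells, and Colec11 was a leading gene of an interstitial-like cluster. Pdgfrb, the PDGF-B receptor of mural cells, was found in 70 of 71 members at 338 CPM (305 to 375), 7.14-fold (6.399 to 7.96) the level in all other cells. Across classes its level followed the order members, interstitial-like (138 CPM, 132 to 145), peritubular myoid-like (54.3 CPM, 49.2 to 59.8) and endothelial-like (12.6 CPM, 6.90 to 21.2). After thinning each cell to 3000 UMIs, 66.2% of members had a UMI of Pdgfrb against 1.46% of Sertoli-like cells, a class that should lack it (median depths before thinning 12339 and 14065 UMIs). Shallower cells were left out, 0 members and 63 Sertoli-like cells, and before thinning the shares were 98.6% and 4.12%. Cspg4, which encodes the proteoglycan NG2, was at 99.2 CPM (81.4 to 119.6) or 7.84-fold (6.36 to 9.58) the level of other cells. Mcam, the adhesion molecule CD146, was at 123 CPM (103 to 145), within counting error of endothelial-like cells (126 CPM, 106 to 149) and far above interstitial-like (2.81 CPM) and peritubular myoid-like cells (3.85 CPM). It was at 67.4 CPM with 3 rule genes needed and at 69.0 CPM over the whole cluster, below endothelial-like cells.

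The pair Gucy1a1 and Gucy1b1, the subunits of the nitric oxide receptor soluble guanylate cyclase, was at 520.4 CPM (479 to 565) and 188 CPM (164 to 216). Gucy1b1 was 4.30-fold (3.595 to 5.13) the level in peritubular myoid-like cells, whereas Gucy1a1 was 1.10-fold (1.01 to 1.20) the level there. Some mural genes of other organs were sparse: Vtn had 12 UMIs in 7 members, Rgs4 19 in 8, Steap4 13 in 8, Art3 9 in 5 and Anpep, which encodes CD13, 5 in 4. Itih5, an inter-alpha-trypsin inhibitor gene, was the 1 mural list gene at least 2-fold lower than in interstitial-like cells, at 50.9 CPM (38.5 to 66.2) against 152 CPM (146 to 159). Against the 3 classes the list's median log2 ratio was 3.28 (endothelial-like), 2.53 (peritubular myoid-like) and 1.36 (interstitial-like).

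**Figure D3:**
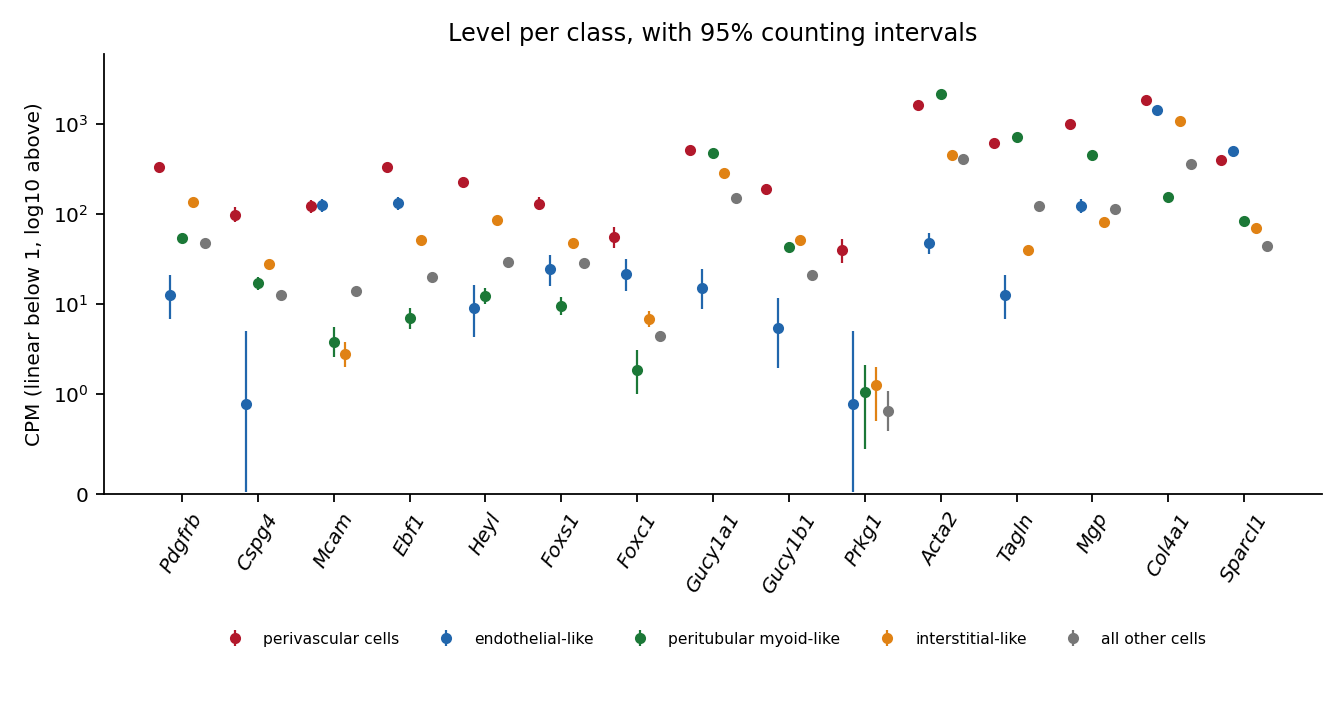
Level of 15 genes that the rule did not use (y axis, CPM, linear below 1 and log10 above) in the members and 4 comparison classes; points are sums over cells and lines 95% Poisson intervals. Pdgfrb, Cspg4, Ebf1, Heyl, Foxs1, Foxc1, Gucy1b1 and Prkg1 were highest in the members, Sparcl1 was highest in endothelial-like cells, and Acta2 and Tagln were highest in peritubular myoid-like cells with all 71 members counted. In the 62 members of the cluster alone, Acta2 and Tagln were within counting error of peritubular myoid-like cells.

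Contractile genes were higher than in all other cells in 12 of 12 tested genes (median log2 ratio 1.72) but not than in peritubular myoid-like cells, the smooth-muscle-like layer around the cords, with 1 of 14 higher, 1 lower and a median of -0.06. Their summed level was 6859 CPM in the members and 6913 CPM in peritubular myoid-like cells. Acta2, smooth muscle actin, was at 1620.3 CPM (1546 to 1697) against 2159 CPM (2126 to 2193) in peritubular myoid-like, 460.3 CPM (449 to 472) in interstitial-like and 47.8 CPM (35.8 to 62.5) in endothelial-like cells. Tagln, the actin-binding protein transgelin, was at 625 CPM (579 to 674) against 729.7 CPM (710.5 to 749) in peritubular myoid-like cells. In the 62 members of the cluster alone Acta2 was at 2067 CPM (1970.0 to 2167) and Tagln at 785 CPM (725 to 847). Both were then within counting error of peritubular myoid-like cells, so no order of these 2 classes is read from those 62 members. The 1 higher gene was Actg2, enteric smooth muscle actin, at 89.2 CPM (72.4 to 109) against 26.7 CPM (23.1 to 30.6), and it came from 13 members, with up to 31 UMIs in 1 of them. The 1 lower gene was Myocd, the smooth muscle coactivator myocardin, at 7.28 CPM (3.14 to 14.3) against 36.2 CPM (32.1 to 40.8). Genes of mature smooth muscle were 2-fold apart in neither direction: Myh11, smooth muscle myosin, was at 41.8 CPM (30.6 to 55.8) in the members and 73.3 CPM (67.3 to 79.7) in peritubular myoid-like cells, and Cnn1, calponin, at 12.7 CPM (6.96 to 21.4) and 23.1 CPM (19.8 to 26.8).

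Contractile genes varied from member to member. Acta2 ran from 0 in 12 members to 150 UMIs, with a median of 10, and Tagln from 0 in 23 members to 98 UMIs, with a median of 1. The contractile list took between 0.140% and 3.82% of a member's UMIs (median 0.473%). The levels of Acta2 and Tagln ran together (Spearman rho 0.77 over 71 cells on UMIs per UMI of the cell), while Acta2 and Abcc9 ran against each other weakly (rho -0.36). These are descriptions of cells that share 1 library, and in sparse counts weak values carry no finding. By contrast Col4a1 was present in all 71 members, with 2 to 78 UMIs, and Pdgfrb in all but 1, with up to 15 UMIs. The plot of single members shows that the spread of Acta2, Tagln and Mgp lay within the 62 members of the cluster, and that none of the 9 others reached the higher values.

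**Figure D4:**
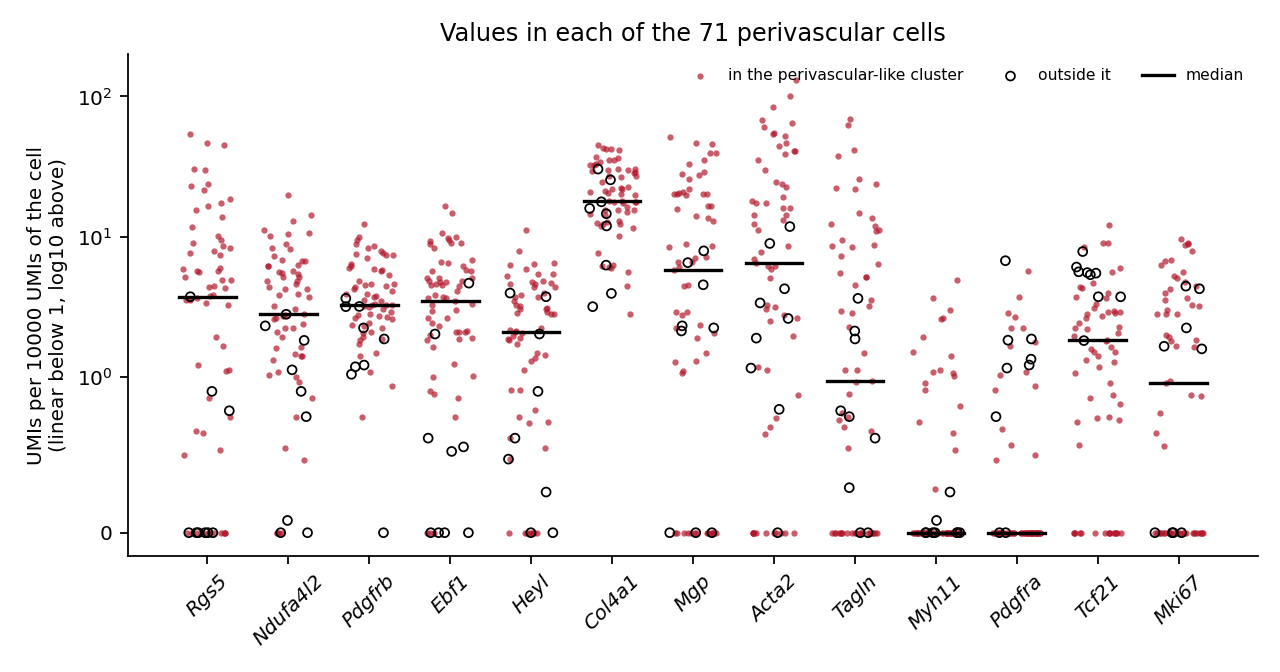
UMIs of 13 genes per 10000 UMIs of the cell (y axis, linear below 1 and log10 above) in each of the 71 members; red points are the 62 members of the perivascular-like cluster, open circles the 9 outside it, and black bars the median over all 71. Col4a1 was above 0 in every member, Acta2 and Tagln spanned from 0 to over 50, and Rgs5 was at 0 in most open circles.

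Of 28 genes that set vessel tone 10 were tested, of which 6 were higher than in all other cells and 1 lower (median log2 ratio 1.31, and 0.29 with no filter on low values). Against interstitial-like cells 2 of 9 higher and 0 lower (median 0.28), against peritubular myoid-like cells 3 of 10 higher and 1 lower (median 0.77) and against endothelial-like cells 5 of 12 higher and 4 lower (median 0.24) were counted. Prkg1, the cGMP-dependent kinase downstream of guanylate cyclase, was at 40.0 CPM (29.1 to 53.7), 48.0-fold (31.6 to 72.5) the level in all other cells and near 1 CPM in each of the 3 comparison classes. Pde3a, a phosphodiesterase gene, was at 62.8 CPM (48.8 to 79.4) against 11.4 CPM in all other cells, and Pde5a, which breaks down cGMP, at 53.7 CPM (40.9 to 69.2) against 18.0 CPM. Ednra, the endothelin receptor of smooth muscle, was at 174 CPM (150.0 to 200.2), close to interstitial-like cells (183 CPM, 176 to 190.0). S1pr3, a sphingosine-1-phosphate receptor gene, was at 47.3 CPM (35.3 to 62.0) against 13.2 CPM. The gene at least 2-fold lower was Npr1, the receptor of atrial natriuretic peptide, at 7.28 CPM (3.14 to 14.3) against 35.7 CPM, and without the deepest member it was at 3.09 CPM. The angiotensin receptor gene Agtr1a had 12 UMIs in 8 members and was under the level for calls.

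Ligands and receptors of the vessel wall were split between the members and the endothelial-like cells. Pdgfb was at 3.64 CPM (0.992 to 9.32) in the members and 154 CPM (132 to 179) in endothelial-like cells, the reverse of Pdgfrb. Pdgfra, the receptor of stromal cells, was at 90.1 CPM (73.2 to 109.7) in the members against 288 CPM (279 to 297) in interstitial-like and 228 CPM (217 to 239) in peritubular myoid-like cells, and 48 members had no UMI of it. It was at 150.4 CPM with 3 rule genes needed, 53.7 CPM with no endothelial gene allowed and 58.0 CPM without the highest 4% of doublet scores. Both receptor genes had a UMI in 22 members, Pdgfrb alone in 48 and Pdgfra alone in 1. The ligand gene Pdgfa was at 70.1 CPM. Pdgfc was at 19.1 CPM with the deepest member and 6.17 CPM without it. Of 4 tested genes of the PDGF list, 1 (Pdgfrb) was 2-fold higher than in all other cells.

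In the Notch pathway 6 of 13 tested genes outside the rule were higher than in all other cells and 0 lower. They were the receptor gene Notch1 (100.1 CPM, 82.2 to 121, against 13.9 CPM), the ligand gene Jag1 (94.6 CPM, 77.3 to 115, against 19.7 CPM) and the target genes Heyl (228 CPM, 201 to 258, against 29.1 CPM), Hey2 (41.8 CPM, 30.6 to 55.8, against 2.15 CPM) and Nrarp (47.3 CPM, 35.3 to 62.0, against 5.29 CPM), with Nrip2. Hey2 and Nrarp were under 10 CPM in all other cells, so by the filter they could not be called lower there. The median log2 ratio of the list was 0.76, and 0.26 with no filter on low values. The same 6 genes passed 2-fold against peritubular myoid-like and against interstitial-like cells. Against endothelial-like cells the list split by family member: Heyl, Hey2, Notch2 and Nrip2 were higher, and 7 genes were lower, among them the ligand genes Dll4 (0 UMIs against 74.0 CPM, 58.8 to 91.8) and Jag2 (0 UMIs against 59.5 CPM, 46.0 to 75.7), the receptor gene Notch4 and the target genes Hey1 and Hes5. Heyl was higher in the members and Hey1 in the endothelial-like cells (15.5 CPM, 9.01 to 24.8, against 62.2 CPM, 48.4 to 78.8).

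Of the angiopoietin and VEGF list, 4 of 10 tested genes were higher than in all other cells. Angpt2, an angiopoietin, was at 30.9 CPM (21.4 to 43.2) in 21 members against 4.51 CPM (1.46 to 10.5) in endothelial-like cells and 5.14 CPM in all others. Angpt1 had 12 UMIs, 1 in each of 12 members (10.9 CPM, 5.64 to 19.1). Their receptor gene Tek was at 1.82 CPM (0.220 to 6.57) in the members and 121 CPM (101.28 to 143) in endothelial-like cells. Vegfc was at 30.02 CPM (20.7 to 42.2) and the placental growth factor gene Pgf at 40.9 CPM (29.9 to 54.8), against 2.79 and 11.7 CPM in all other cells, and the co-receptor gene Nrp1 was at 111 CPM (92.2 to 133). Vegfc and Nrp1 were both higher in endothelial-like cells, at 72.2 CPM (57.2 to 89.8) and 292 CPM (261 to 326). The VEGF receptor genes Kdr and Flt1 had 8 and 1 UMIs in the members, against 478 and 401 CPM in endothelial-like cells, and Kdr was at 2.06 CPM without the deepest member. In all 9 of 16 tested genes of this list were lower than in endothelial-like cells and 6 higher, with 3 of 9 higher and 1 lower against interstitial-like and 4 of 11 higher and 1 lower against peritubular myoid-like cells.

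Basement membrane genes were higher than in all other cells in 9 of 18 tested genes and lower in 1 (median log2 ratio 1.03). Col4a1 and Col4a2, the main chains of type IV collagen, were at 1857 CPM (1777 to 1939) and 786 CPM (734 to 840.3), or 5.13-fold (4.90 to 5.37) and 4.55-fold (4.24 to 4.87) the levels in all other cells. Col4a1 was 11.9-fold (11.0 to 12.8) the level in peritubular myoid-like cells, 1.72-fold (1.65 to 1.81) that in interstitial-like cells and 1.29-fold (1.21 to 1.38) that in endothelial-like cells. Against interstitial-like cells the list had 3 of 19 higher and 1 lower (median 0.34), the higher genes being Lama4, Agrn and Emid1, and Col4a2, Nid1 and Nid2 were within 2-fold. The nidogen genes Nid1 and Nid2 were at 199 and 93.7 CPM against 69.6 and 32.5 CPM in all other cells, the laminin gene Lama4 at 61.0 against 22.2 CPM, the agrin gene Agrn at 88.2 against 29.5 CPM, and Emid1, an EMI domain gene, at 52.8 CPM (40.1 to 68.2) against 5.07 CPM. The lower gene was Col18a1, at 31.8 CPM (22.2 to 44.3) against 175 CPM in all other cells and 735 CPM (686 to 787) in endothelial-like cells, and it was at 19.5 CPM without the deepest member. Against endothelial-like cells 3 genes were higher and 6 lower, the latter including the perlecan gene Hspg2 (58.2 CPM, 44.8 to 74.4, against 367 CPM, 332 to 405).

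Fibrillar and secreted matrix genes were higher than in all other cells in 11 of 27 and lower in 1, but their median was near 0 against peritubular myoid-like (-0.06) and interstitial-like cells (-0.07). Mgp, matrix Gla protein, an inhibitor of calcification, was at 1004 CPM (946 to 1065) against 454 CPM (439 to 469.8) in peritubular myoid-like and 82.6 CPM (77.8 to 87.5) in interstitial-like cells, in 54 of 71 members and with up to 92 UMIs in 1 of them. Col12a1 was at 33.7 CPM (23.7 to 46.4) against 3.31 CPM in all other cells. Col1a1, Col6a1, Dcn (decorin), Lum (lumican) and Mfap4 were past 2-fold lower than in peritubular myoid-like cells, with Dcn at 328 CPM (295 to 364) against 920.4 CPM (899 to 942). Among adhesion genes, Itga4 was the 1 higher of 9 tested integrin genes (129 CPM, 109 to 152, against 39.7 CPM), but interstitial-like cells had a like level (141 CPM, 135 to 147), and Itga6 was the 1 lower. Itga6 was past 2-fold higher than in peritubular myoid-like and in interstitial-like cells, and past 2-fold lower than in endothelial-like cells. Of 6 tested junction genes Cdh2 (N-cadherin, 87.3 CPM, 70.7 to 107, against 25.5 CPM), Gjc1, Gja4 and Cdh6 were higher and Gja1, connexin 43, lower (13.6 CPM, 7.64 to 22.5, against 96.0 CPM). Against peritubular myoid-like cells Cdh2 was the 1 higher junction gene of 5 tested and against interstitial-like cells Cdh2 and Cdh6 were higher, while Gja4, connexin 37, was at 16.4 CPM (9.71 to 25.9) against 248 CPM (219.6 to 279) in endothelial-like cells.

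Of 27 tested transcription factor genes of mural and stromal cells, 13 were higher than in all other cells and 1 lower (median log2 ratio 0.90, and 0.29 with no filter on low values). Against interstitial-like cells 9 of 27 higher and 1 lower (median 0.24), against peritubular myoid-like cells 10 of 27 higher and 3 lower (median 0.70) and against endothelial-like cells 15 of 33 higher and 10 lower (median 0.93) were counted. Ebf1, an early B cell factor that is also made in pericytes, was at 337 CPM (303 to 373) in 64 members, 16.6-fold (14.7 to 18.6) the level in all other cells and 2.52-fold (2.08 to 3.07) that in endothelial-like cells (134 CPM, 113 to 157). It was at 197 CPM with 3 rule genes needed and 196 CPM over the whole cluster, which is within 2-fold of endothelial-like cells. Foxc1 and Foxc2, forkhead factors of vascular development, were at 55.5 CPM (42.5 to 71.3) and 26.4 CPM (17.7 to 37.9) against 4.45 and 4.77 CPM. Mef2c was at 359 CPM (325 to 397), near endothelial-like cells (298 CPM, 266 to 332) and 5.34-fold (4.73 to 6.01) the level in interstitial-like cells. Foxs1 was at 131 CPM (110.5 to 154) against 28.6 CPM, and the T-box gene Tbx3 at 20.02 against 4.74 CPM. Tbx2 was at 279 against 102 CPM in all other cells but 263 CPM in interstitial-like and 169 CPM in peritubular myoid-like cells. The lower gene was Foxo1, at 6.37 CPM (2.56 to 13.1) against 34.2 CPM.

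Genes of gonadal stroma were at most level with interstitial-like cells. None of 23 tested genes was 2-fold higher than in interstitial-like cells and 7 were lower, among them Ptch1, Hhip, Cxcl12, Kitl, Wnt5a and Inhba. Ptch1 and Hhip, targets of hedgehog signals, were at 72.8 CPM (57.7 to 90.6) and 20.02 CPM (12.5 to 30.3) against 261 CPM (252 to 269.5) and 89.3 CPM (84.3 to 94.5). The chemokine gene Cxcl12 was at 266 CPM (236 to 298) against 765 CPM (750.3 to 779.8). Tcf21 was at 328 CPM (295 to 364) against 967 CPM (944 to 989) in peritubular myoid-like cells, with 68 of its 361 UMIs in the deepest member, and Nr2f2, a factor of interstitial cells, at 469 CPM (429.8 to 512) against 607 CPM (594 to 620.4) in interstitial-like cells. Nr5a1, the gene the study deleted in Sertoli cells, was at 18.2 CPM (11.1 to 28.1) in 9 members, of whose 20 UMIs the deepest member held 12, and at 8.23 CPM without it. Wt1 was at 56.4 CPM, and at 12.3 CPM without that member, which held 50 of its 62 UMIs. Against all other cells 2 of 24 tested genes were higher and 4 lower, and Nes, which encodes the intermediate filament nestin, was among the higher (114 CPM, 94.7 to 135, against 49.8 CPM).

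Of the secreted signals 6 of 23 tested were higher than in all other cells and 3 lower. Igfbp7, an insulin-like growth factor binding protein made in vessels, was at 799 CPM (747 to 853), near endothelial-like (945 CPM, 889 to 1004) and interstitial-like cells (635 CPM, 622 to 649) and 10.8-fold (9.74 to 12.1) the level in peritubular myoid-like cells. Against interstitial-like cells the list had 5 of 25 higher and 4 lower (median -0.36), and against peritubular myoid-like cells 3 of 25 higher and 5 lower (median -0.14). Ptn, pleiotrophin, was at 1166 CPM (1103 to 1232) against 408 CPM in all other cells but 1659 CPM (1630.3 to 1689) in peritubular myoid-like cells, and Ccn2, a matricellular protein, at 41.8 CPM (30.6 to 55.8) against 11.0 CPM. Kitl, the ligand of KIT, was at 8.19 CPM (3.74 to 15.5) against 71.1 CPM. Of 21 tested TGF-beta and BMP genes 3 were higher (Tgfb2, Bmp5 and Ltbp4) and 1 lower (Smad7), with 5 of 20 higher and 1 lower against interstitial-like and 1 of 21 higher and 2 lower against peritubular myoid-like cells. Bmp5 was at 31.8 CPM (22.2 to 44.3) against 4.81 CPM. The ID genes, targets of BMP signals, depended on the deepest member in part: Id2 was at 120.1 CPM with it and 36.0 CPM without it, since it held 97 of the 132 UMIs, while Id3 was at 519 and 461 CPM.

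Mki67, a marker of proliferation, was at 228 CPM (201 to 258) against 131 CPM in all other cells. A UMI of it was read in 41 of 71 members. After thinning to 3000 UMIs the share was 38.0% in the members, 20.3% in all other cells, 23.7% in interstitial-like and 9.32% in Leydig-like cells. No class known to lack the gene was at hand as a background, and no number of dividing cells is read from these shares. The 13 G2/M genes summed to 0 UMIs in 7 members and to 202 UMIs in the highest, with a median of 17. Of 28 tested cell cycle genes 0 were 2-fold higher than in all other cells and 1 lower, the inhibitor gene Cdkn1c (168 CPM, 145 to 194, against 368 CPM, and 111 CPM without the deepest member), with a median log2 ratio of 0.53, and the median was 0.30 against peritubular myoid-like and 0.26 against interstitial-like cells. Against endothelial-like cells 4 of 28 were higher (Top2a, Cenpf, Aurkb and Rrm2) and 1 lower (Ccnd1), with a median of 0.58. Among immediate early and stress genes, which can also respond to tissue dissociation, Egr1 was at 175 CPM (151 to 201) in 34 members against 43.8 CPM, Ier2 at 206 CPM (179.7 to 234) against 91.6 CPM and Fos at 7.28 CPM (3.14 to 14.3) against 11.2 CPM, and 3 of 13 tested were higher and 3 lower, with 1 of 11 higher and 0 lower against interstitial-like and 4 of 9 higher and 0 lower against peritubular myoid-like cells (Junb, Egr1, Ier2 and Zfp36, list median 0.64).

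**Figure D5:**
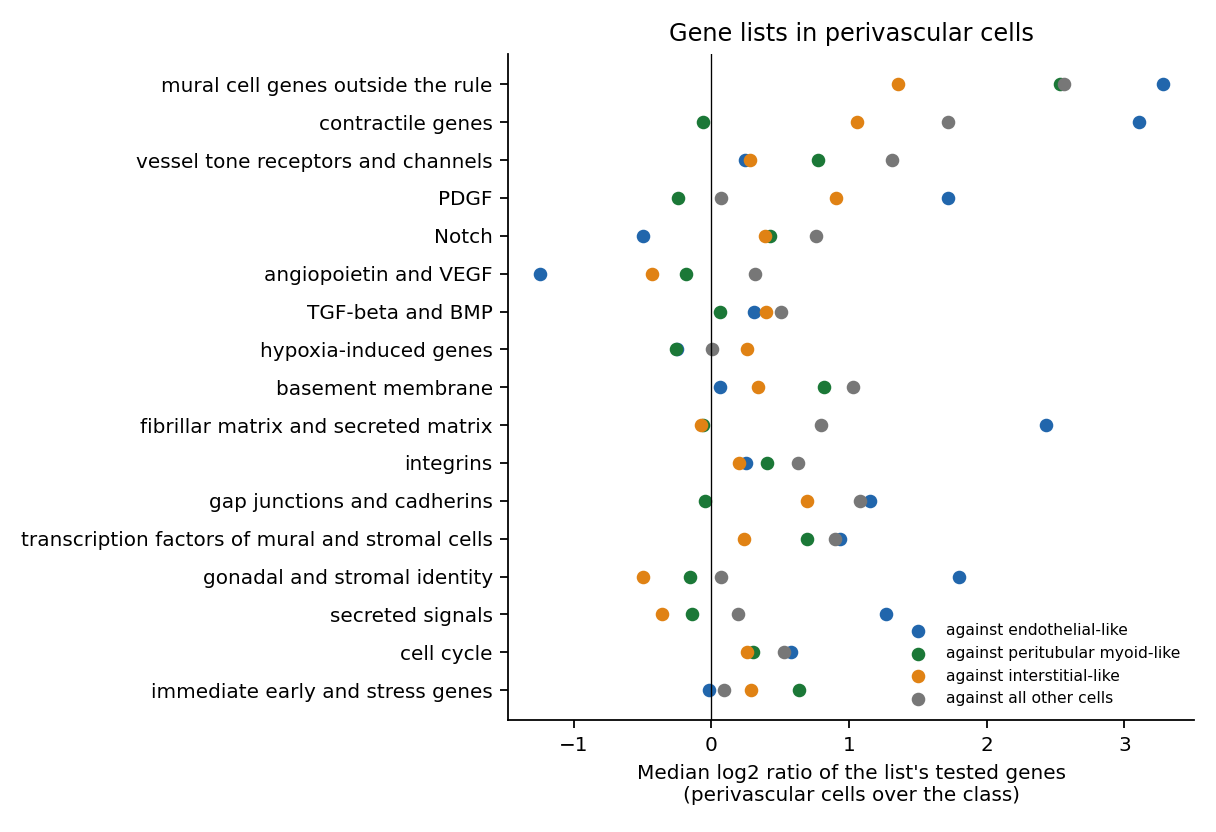
Median log2 ratio (x axis) of the tested genes of each list (y axis) in the members over each of 4 comparison classes, by colour; genes of the rule are left out and the vertical line marks 0. The mural list is above 1 in all 4 comparisons, the contractile list is near 0 against peritubular myoid-like cells, and the hypoxia-induced list lies within 0.3 of 0 in every comparison.

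Outside the lists, the 15 genes with the largest ratios to all other cells (at least 100 UMIs and a UMI in at least 25% of the members) included genes shared with endothelial-like cells. Tm4sf1 (156 CPM, 133 to 181, against 402 CPM, 366 to 441, in endothelial-like cells), Gng11 (454 CPM, 415 to 496, against 1107 CPM, 1046 to 1171), and Sparcl1 (398 CPM, 362 to 438, against 499.8 CPM, 459 to 543) were higher there, and Apbb2 and Gm13889 were within 2-fold. Others were lower in endothelial-like cells: Spon1, which encodes F-spondin (98.3 CPM, 80.6 to 119, against 1.80 CPM, 0.218 to 6.52), Lhfp (176 CPM, 152 to 202, against 8.12 CPM, 3.71 to 15.4) and Rasl11a (158 CPM, 136 to 184, against 7.22 CPM, 3.12 to 14.2). The septin gene Sept4, Rasgrp2 and Phlda1 were past 2-fold above endothelial-like cells, and Crip1, Asb4 and Rcsd1 within 2-fold of them. Mndal belongs to an interferon-inducible family of near-identical genes, so its value (91.9 CPM, 74.8 to 112, against 3.55 CPM) is uncertain. The 10 genes with the lowest ratios were Dppa3, Dppa4, Defb19, Gstm6, Chchd10, Cst8, Col9a3, Inha, Kctd14 and Tmem184a. Dppa3 and Dppa4, genes of germ cells, had 0 UMIs in the members, and Inha, the inhibin alpha subunit of Sertoli cells, was at 12.7 CPM (6.96 to 21.4) against 318 CPM, and 5.14 CPM without the deepest member.

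The 105 cells that shared the perivascular-like cluster but not the rule shared some of these levels. Their median depth was 9841 UMIs against 12339 in the members, and the part of depth in missing the rule was not tested. The deepest of the 105 had 143197 UMIs, or 10.9% of their total, and levels without it are not given here. Levels of Mgp (1084 CPM, 1028 to 1141), Heyl (210.1 CPM, 186 to 236), Lhfp (185 CPM, 163 to 209.8) and Spon1 (116 CPM, 98.4 to 136) were near those of the members. Other genes that the rule did not use were lower in these cells: Ebf1 was at 55.4 CPM (43.4 to 69.6) against 337 CPM in the members, Mcam at 12.1 CPM (6.94 to 19.7) against 123 CPM, Foxc1 at 9.86 CPM (5.25 to 16.9) against 55.5 CPM, Prkg1 at 4.55 CPM (1.67 to 9.90) against 40.0 CPM and Emid1 at 7.58 CPM (3.64 to 13.9) against 52.8 CPM. Tcf21 was higher in them, at 570.3 CPM (530.3 to 613) against 328 CPM, as was Lhx9, a gonadal ridge factor, at 415 CPM (381 to 451) against 190.1 CPM.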

How the data were processed

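One control library of pooled fetal mouse testes was used. The deposited values were raw UMI counts per gene and barcode, made by the authors with Cell Ranger (3.1.0 and 3.0.2 are named in the submitters' processing notes) against mm10 with a YFP sequence added. The table held 5421 distinct barcodes, 22631 features and 72595083 UMIs, and barcodes with at least 1000 genes were kept.

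Cells were clustered with SCTransform (sctransform 0.4.2) in Seurat 5.3.0 (R 4.3.3). Clusters were named from listed markers when the mean log2 ratio of the markers was at least 1 and at least 3 were each found in 25% of its cells. A name also needed that no other class had more of its markers among the cluster's 10 leading genes. Names may differ from the study's. Doublets were scored with Scrublet in scanpy 1.11.5 but not removed. UMIs were summed per class and given as CPM with Poisson intervals of 95%. Genes were called at 2-fold after adding 5 CPM, with a mean of at least 10 CPM. Intervals and the floor of 3 counts cover counting error only. With 1 library no comparison was tested; the code that makes the calls was checked on simulated data.

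Members and lists were chosen with earlier results of these data known. Named were, of each list, genes of high level or past 2-fold, and outside the lists the 15 highest and 10 lowest ratios. Genes printed for low level or for contrast were chosen after their values were seen. Alternatives were the rule's limits, filters, pseudocounts, doublet and free-RNA removal. Promoters came from a RefSeq table, searched on both strands for the words the report names. Some genes of the lists are not reported here.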

Additional observations from a re-analysis of the deposited data

How the results depend on the processing

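With 1 library no replicate could be left out, and no p-value bears on any value here. No paired analysis was possible because there was 1 library. Settings without the deepest member, without the hemoglobin-rich member and with the 62 members of the cluster alone were chosen after seeing the data. The number of cells was 139 with 3 rule genes needed, 167 as the whole cluster and 47 with no endothelial gene allowed.

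Counts of genes past 2-fold moved with the filter and the pseudocount. At a mean of at least 50 CPM, which tests fewer genes, 144 genes were higher than in all other cells, 222 than in endothelial-like, 93 than in peritubular myoid-like and 70 than in interstitial-like cells, and 107, 277, 53 and 61 were lower. With 20 CPM added, 185, 451, 156 and 127 were higher and 217, 446, 61 and 62 lower. With a mean of at least 2 CPM, or with no filter, 815 genes were lower than in all other cells, and with 1 CPM added 222 were lower than in interstitial-like cells. With 3 rule genes needed, 147 genes were higher than in interstitial-like cells, 49 lower, and 85 lower than in peritubular myoid-like cells; with the whole cluster, 153 were higher than in interstitial-like cells.

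Counts of genes lower than in peritubular myoid-like and in interstitial-like cells were 249 and 236 with 5 rule genes needed, 250 and 238 as a mean of per-cell CPM, 263 and 266 with the cluster's members alone, 279 and 262 with no endothelial gene, and 254 and 238 without the highest 4% of doublet scores. The cause was not tested.

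The median of the PDGF list against all other cells, over 4 genes, was 0.07 in the main setting. It was -0.81 as a mean of per-cell CPM, -0.53 with the cluster's members alone, -0.93 with no endothelial gene, -0.59 without cells beyond 3 median absolute deviations and -0.74 without the highest doublet scores. The gonadal list's median was 0.07 in the main setting and -0.52 as a mean of per-cell CPM. The angiopoietin and VEGF median was 0.31 in the main setting, 0.97 with the whole cluster and 1.15 at 50 CPM. The Notch median was 0.76 in the main setting, 2.24 at 50 CPM, 0.51 at 2 CPM and 0.26 with no filter. The mural median was 1.70 at 2 CPM and with no filter and 1.87 with 20 CPM added. With no filter the medians of transcription factors and of vessel tone genes were both 0.29. Counting the Notch medians at 2 CPM and with no filter, 411 comparisons of a count or median with its main value moved by less.

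Some levels also moved by over 1.5 times with the choice of cells. With 3 rule genes needed, Ebf1 was at 197 CPM, Epas1 at 28.0 CPM and Mcam at 67.4 CPM. Over the whole cluster, which holds 105 further cells, Ebf1 was at 196 CPM, Epas1 at 30.3 CPM, Mcam at 69.0 CPM, Cspg4 at 65.7 CPM, Tagln at 415 CPM, Angpt2 at 17.3 CPM and Angpt1 at 6.53 CPM.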

Other observations

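The reference held a YFP sequence, although by the study's account the controls carried no YFP transgene, and 1 UMI of it was counted in 1 of the 71 members and 156 UMIs in 147 of the other 4230 cells. It was seen in 43 of 1019 Sertoli-like, 31 of 367 Leydig-like, 29 of 1323 interstitial-like, 20 of 549 peritubular myoid-like, 13 of 336 germ-like and 1 of 49 endothelial-like cells. Among the 1120 barcodes under 1000 genes, 1 had a UMI of at least 3 of the 8 rule genes.

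Cox7a1 and Cox7a2, a further pair of variants of a respiratory chain subunit that the rule did not use, gave another order of classes. Cox7a1 made up 0.353% (exact 95% interval 0.0427 to 1.27%) of the UMIs of the pair in the members, 3.20% (3.01 to 3.39%) in all other cells and 6.48% (5.93 to 7.07%) in Sertoli-like cells. The low share was common to the neighbouring classes, at 0.218% (0.0876 to 0.448%) in peritubular myoid-like, 0.424% (0.0514 to 1.52%) in endothelial-like and 0.625% (0.441 to 0.861%) in interstitial-like cells.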
